A study of Mus musculus with 12 samples.

Results

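The TGF-beta pathway was followed through 9 genes in perivascular macrophages of the mouse brain, which sit beside cerebral blood vessels. The members were the rows of the expression table, out of 17358 genes, named Tgfb1 (ligand), Tgfbr1 and Tgfbr2 (receptors), Smad2, Smad3, Smad4 and Smad7 (signal transducers), and Skil and Ski (nuclear repressors). The set was chosen by the aged against young difference in Skil counts, so the levels of Skil are given as a description without a test. Libraries came from C57BL mice, 5 from aged animals (18 months) and 7 from young adults (3 months). The submitters call them biological replicates. How many animals or cells each library holds, the sort marker and the sex are not given in the sources used here, so a p-value here covers only library-to-library spread, which may be technical. No genotype, transgene or treatment is labelled for either group.

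TGF-beta is secreted in a latent form and acts, once released, on a complex of a type II receptor (Tgfbr2) and a type I receptor (Tgfbr1). The type I receptor phosphorylates Smad2 and Smad3, which join Smad4 and enter the nucleus to control target genes. Smad7 blocks the receptor complex. Ski and Skil (also called SnoN) bind the Smads on DNA and recruit co-repressors; Skil is itself a known target of the pathway and its protein is removed by ubiquitin ligases when signalling starts. In the brain, TGF-beta is known for maintaining the identity of microglia, the macrophages of the brain tissue itself.

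Skil lies on chromosome 3 from 31095058 to 31122923 and its paralog Ski on chromosome 4 from 155154075 to 155222535 (GRCm38, RefSeq). Tgfbr1 lies on chromosome 4 from 47353222 to 47414926, Tgfbr2 on chromosome 9 from 116087695 to 116175363, Smad3 on chromosome 9 from 63646766 to 63757994 and Tgfb1 on chromosome 7 from 25687002 to 25705077. The results turn on Skil and Ski having separate counts, so their most similar stretch is shown, the ungapped window of 120 coding bases with the most matches in the longest GENCODE M21 coding transcripts. In Skil it is chr3:31097767-31097886 on the plus strand, in exon 2 of 7. In Ski it is chr4:155222088-155222207 on the minus strand, in exon 1 of 7. Capitals mark the bases that differ, 32 of 120.
Skil: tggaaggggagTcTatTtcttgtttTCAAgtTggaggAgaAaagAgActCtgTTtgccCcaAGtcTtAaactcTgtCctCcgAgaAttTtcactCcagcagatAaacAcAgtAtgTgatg
Ski: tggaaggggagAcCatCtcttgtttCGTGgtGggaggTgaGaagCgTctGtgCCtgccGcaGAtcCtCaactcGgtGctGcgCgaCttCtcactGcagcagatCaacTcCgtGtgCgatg
In this window 73.3% of bases were identical, and the longest identical run anywhere in an ungapped comparison of the coding sequences (2028 and 2184 bases) was 13 bases. None of the 6668 windows of 50 bases of the Skil transcript, and none of the 5473 of Ski, occurred on either strand in a transcript of another gene. The same held for the other members except Tgfbr2, where 63 of 8043 windows (0.783%) were shared. The annotation places no gene over Skil or Ski. It places a processed pseudogene on the opposite strand within Smad4, whose transcript shared none of those windows with the longest coding transcript of Smad4. Only that transcript, of 3384 bases, was compared. The length implied by Smad4 counts and FPKM, described below, had a median of 4000 bases. Any Smad4 sequence counted beyond that transcript was thus not covered.

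Library totals ranged from 23214836 to 30505441 estimated counts in aged and from 25864086 to 30628787 in young libraries. A library with 0 counts of a gene allows a level of up to 3 counts, between 0.0979 and 0.129 counts per 1e+06 counts (CPM) of the library total, for counting error only. The 12 perivascular macrophage markers (Mrc1, Cd163, Lyve1 and others) summed to between 11833 and 18587 normalised CPM in aged and between 12829 and 22267 in young libraries, and the 10 microglia markers to between 4008 and 6088 against 3810 and 7498. The endothelial markers summed to at most 27.8 normalised CPM in a library. Choroid plexus and ependyma markers, 9 of the 10 listed being in the table and none at 0 in all libraries, summed to between 201 and 1110 normalised CPM in aged and between 59.4 and 152 in young libraries, without overlap. Aged libraries 1, 3 and 4 stood apart on the first principal component, with scores from 62.5 to 81.1 against −49.4 to 15.7 in the other 9. Leaving those 3 out moved the log2 fold change of 35 of the 48 genes followed here by over 1.5 times or turned its sign. Only some of these moves are given below, so a gene without such a value may be among the 35. These samples are bulk, so fewer cells of a type and less RNA per cell cannot be told apart.

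Skil had the highest mean per transcript length (FPKM) of the 9 genes in both groups, and its mean normalised CPM in aged libraries was 3.81 times that in young ones. Aged libraries 1 to 5 held 1750, 492, 4117, 2220 and 1484 normalised CPM (scaled by edgeR's TMM factors). The 7 young libraries ran from 338 through a median of 564 to 696 normalised CPM. Libraries 1, 3, 4 and 5 of the aged group thus lay above all young ones, while aged library 2 lay inside the young range, so the groups overlapped. In raw terms Skil took between 0.0395% and 0.0699% of all counts in young libraries and up to 0.354% in aged library 3. The means were 2013 ± 1335 (SD, n = 5) and 529 ± 119 normalised CPM (SD, n = 7), with a log2 fold change of 1.93 ± 0.35 (SE). Over all genes tested, 2.91% had at least 4 aged libraries above every young one; because Skil was chosen for this contrast, nothing is read from that share.

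The aged group was the more variable for Skil, with a coefficient of variation of 66.3% against 22.5% in the young group. The young value lies below the lower quartile of 33.8% over the 4826 tested genes with a mean of at least 20 CPM (median 47.5%). Without aged library 3, the highest, the log2 fold change of Skil was 1.46, and without aged library 2, the lowest, it was 2.18. Without aged libraries 1, 3 and 4 together it was 0.88, as 1484 normalised CPM in aged library 5 and 492 in aged library 2 then made up the aged group. The choroid plexus marker sum was 572, 1013, 359, 1110 and 201 normalised CPM in aged libraries 1 to 5, and its rho with Skil over the 12 libraries was 0.46. The 1 gene called in the whole comparison, Ttr, is on that list. The fibroblast marker sum had a rho with Skil of 0.64 and the neuron sum 0.52. Endothelium was at −0.53 and pericyte and smooth muscle at −0.55. The remaining marker lists lay between −0.38 (T, NK and B cell) and 0.43 (monocyte and neutrophil). The part of any of these cell types in the level of Skil was not tested.

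**Figure D1:**
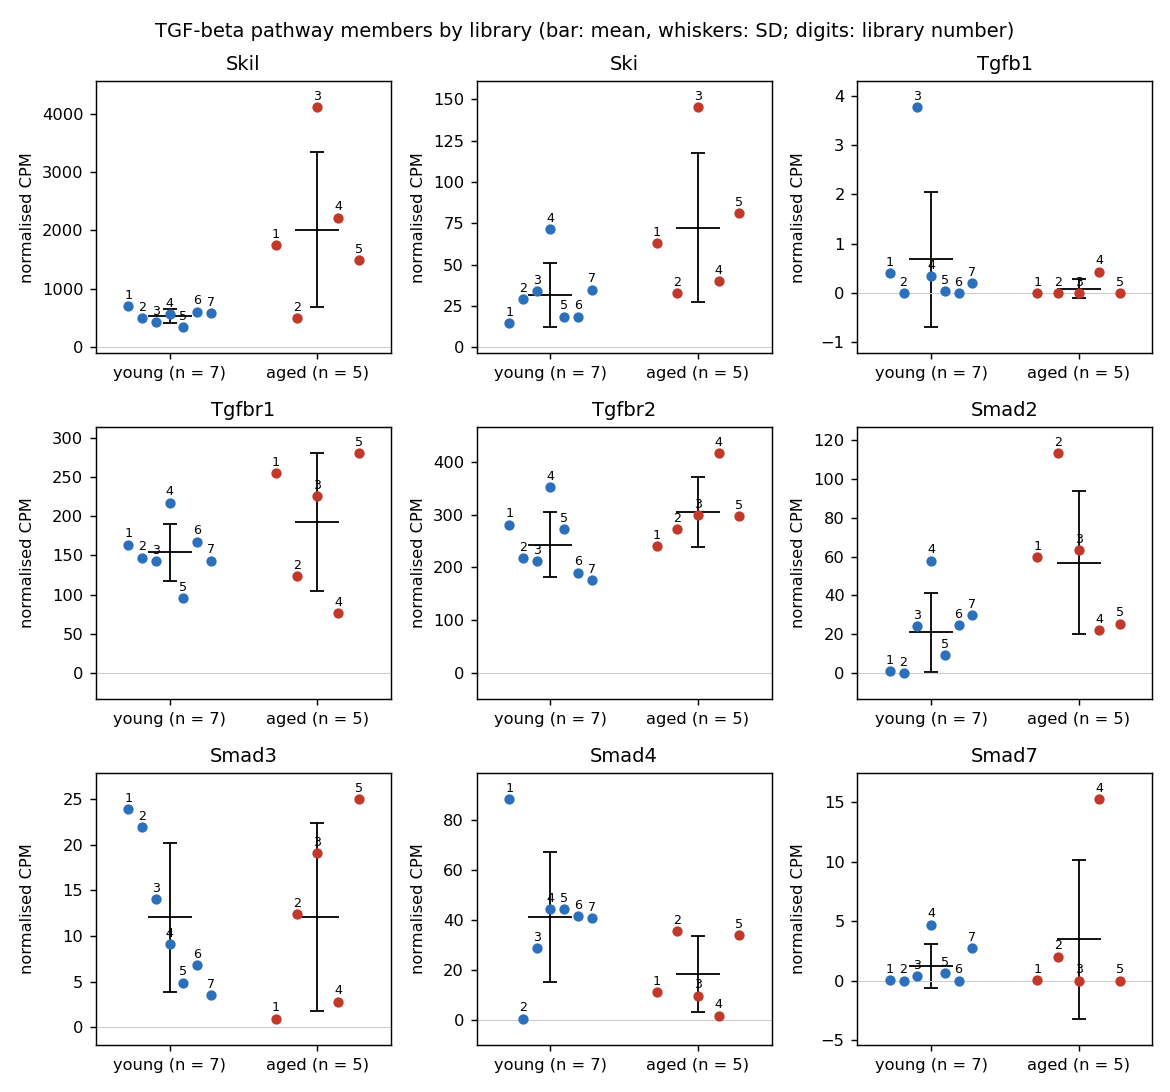
Normalised CPM (vertical axes, linear, a separate scale in each panel) of the 9 members in 7 young (blue) and 5 aged (red) libraries, with the mean as a bar, the SD as whiskers and the library number beside each point. Skil lies between 338 and 696 in young libraries and above 696 in every aged library except library 2, whereas Tgfb1 stays under 4 everywhere.

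The length implied by each library's counts and FPKM values (counts scaled by transcript length and library total) gave a view of Skil that the choice of the gene did not use. It ran from 6388 to 6588 bases over the 12 libraries. The 5 coding transcripts of Skil in GENCODE M21 are 6717, 6578, 2904, 2899 and 716 bases long. The implied lengths thus lay near those of the longest pair in both groups. Smad4 ran more widely, from 3297 to 7019 bases over its libraries, although its coding transcripts are 3384 and 2233 bases long. The longest value came from aged library 4, which held 37 counts of Smad4 at 0.22 FPKM. The median over the 12 libraries, 4000 bases, was above both transcripts too, so the excess was not confined to that library. Why these lengths exceeded both transcripts was not tested.

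Among 2659 tested genes with a mean of at least 50 CPM, the 5 whose levels ranked most like Skil over the 12 libraries were Srsf2, Pdcd4, Paip1, Rassf2 and Cbx3. Srsf2 is a splicing factor, Pdcd4 an inhibitor of translation, Paip1 a partner of the poly(A)-binding protein, Rassf2 a Ras-association domain protein and Cbx3 a heterochromatin protein. Spearman's rho with Skil was 0.97 for Srsf2, 0.97 for Pdcd4 and for Paip1, 0.94 for Rassf2 and 0.93 for Cbx3 (n = 12). Within the 7 young libraries alone rho was 0.93, 0.93, 0.89, 0.79 and 0.64, and within the 5 aged libraries it was 1 for all 5. The 5 genes were picked by rho over these same 12 libraries. High values inside each group follow in part from that choice, and nothing is read from them.

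The 3 genes most opposite to Skil were C1qa, a complement subunit (rho −0.97), Ier2, an immediate-early gene (−0.95), and Ctsd, the lysosomal protease cathepsin D (−0.95). In young libraries alone these were −0.89, −0.82 and −0.89. All 8 genes were picked for their rank likeness, and libraries share depth and composition, so the values describe these libraries only. Srsf2 was at 3639 ± 1392 normalised CPM over aged and 2093 ± 577 over young libraries (0.80 ± 0.26 on the log2 scale, with an adjusted p of 0.421 in edgeR's quasi-likelihood test). C1qa was at 1733 ± 853 against 2893 ± 609 (log2 fold change −0.74 ± 0.28, adjusted p = 0.567). Neither passed, and the groups of all 8 overlapped. When aged libraries 1, 3 and 4 were left out, Srsf2 was at 0.062 and C1qa at −0.23 on the log2 scale.

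**Figure D2:**
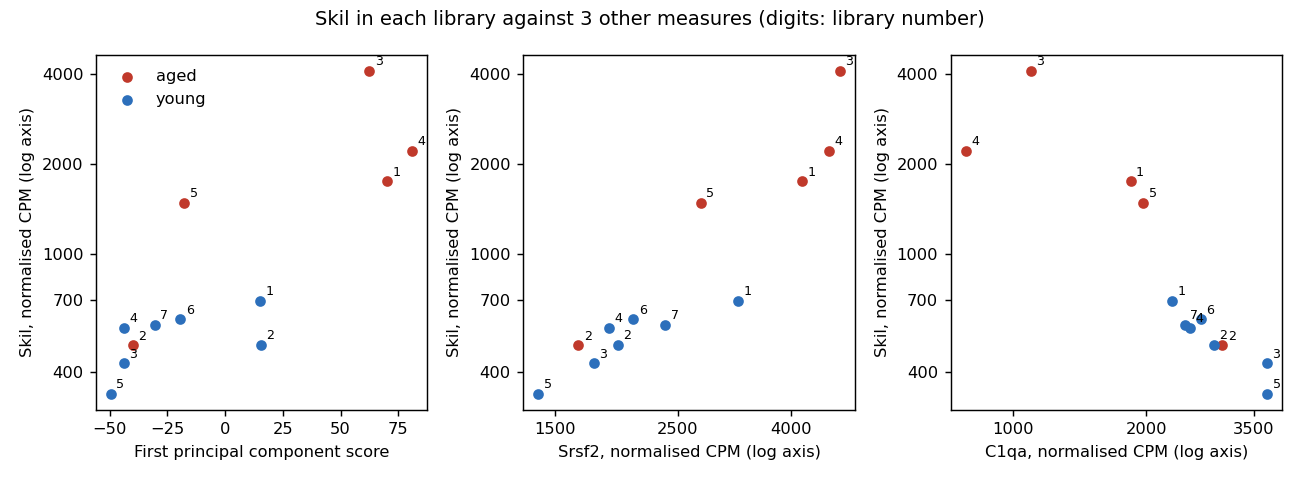
Skil (normalised CPM, log axis) in each of the 12 libraries against the first principal component score, Srsf2 and C1qa (normalised CPM, log axes), with aged libraries in red, young in blue and the library number beside each point. Aged library 2 sits among the young libraries in all 3 panels, and aged library 5 has a Skil level of 1484 with a principal component score inside the young range.

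Ski, the paralog of Skil, was far less abundant. It was at 62.8, 32.8, 145, 39.8 and 81.1 normalised CPM in aged libraries 1 to 5, and ran from 14.6 through a median of 28.9 to 71.3 in young ones. All 5 aged libraries lay above the young median, but only libraries 3 and 5 lay above every young library. The means were 72.3 ± 45.0 and 31.5 ± 19.3 normalised CPM (log2 fold change 1.2 ± 0.53, with an adjusted p of 0.774 and an unadjusted p of 0.0382 in edgeR's quasi-likelihood test). Without aged library 3, which was highest for Skil too, the log2 fold change of Ski was 0.75. Per transcript length, Skil was between 12.2 and 46.1 times the FPKM of Ski in aged libraries (median 23.0) and between 6.48 and 38.7 times in young ones (median 13.8), with overlap. Spearman's rho between the 2 repressors was 0.56 over the 12 libraries, −0.18 within the 7 young and 0.60 within the 5 aged ones.

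Apart from Skil, 7 members passed the filter on low counts and 0 of them passed the test, in edgeR's quasi-likelihood fit, beside 0.0105% of all 9550 genes tested (1 gene). At an unadjusted p under 0.05 there was Ski alone, beside 5.97% of all genes tested. DESeq2 also called 0 of the 7 (beside 1.27% of all genes), as did edgeR's bias-adjusted mode, legacy=FALSE (0.398%), limma with voom weights (0.0209%) and limma on log2(FPKM + 1) (0.0628%). With the edgeR test the count was 0 of 7 with upper-quartile factors (beside 0.0419%), 0 of 8 without a low-count filter, where Tgfb1 entered too (0.0753%), and 0 of the 6 left at a minimum of 10 CPM in 5 libraries (0.0592%). None of the 9 members, Skil included, had groups without overlap, beside 0.597% of the genes tested. The members share the contrast for which Skil was chosen, so nothing is read from these counts.

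Tgfb1, which encodes the main TGF-beta ligand, was near the limit of detection. Aged libraries 1, 2, 3 and 5 held 0 counts and aged library 4 held 9 (0.431 normalised CPM). Young libraries ran from 0 to 112 counts, with a median of 0.197 and a highest value of 3.77 normalised CPM, and library 3 held 112 of the 141 counts of that group. Tgfb1 did not pass the low-count filter and was not tested. At these counts no difference between the groups could be judged.

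Both receptors were measured at more than 70 normalised CPM in every library. Tgfbr2, the type II receptor that binds the ligand, was at 241, 272, 300, 416 and 297 normalised CPM in aged libraries 1 to 5, and between 176 and 352 with a median of 218 in young ones. Every aged library lay above the young median, and library 4 alone lay above all young libraries. The means were 305 ± 66.6 and 243 ± 61.9 normalised CPM, with a log2 fold change of 0.33 ± 0.23 (adjusted p = 0.999, edgeR quasi-likelihood). Without aged library 4 the log2 fold change was 0.17. The coefficient of variation of Tgfbr2 was 21.8% in aged and 25.5% in young libraries.

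Tgfbr1, the type I receptor kinase, was at 256, 124, 226, 76.4 and 281 normalised CPM in aged libraries 1 to 5. The young libraries ran from 95.0 through a median of 147 to 217. Aged values thus lay on both sides of the young range, with libraries 1, 3 and 5 above it and library 4 below it. The means were 192 ± 88.2 and 154 ± 36.7 normalised CPM (log2 fold change 0.32 ± 0.32, adjusted p = 0.999 by the same edgeR test). Without aged library 5 it was 0.12, without aged library 1 it was 0.17 and without aged library 4 it was 0.51. Aged library 4 was the highest of all libraries for Tgfbr2 and the lowest for Tgfbr1.

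Smad2, Smad4 and Smad7 all lie on chromosome 18. Smad2, a receptor-activated Smad, was at 59.7, 113, 63.3, 21.9 and 25.3 normalised CPM in aged libraries 1 to 5. In young libraries it ran from 0 counts in library 2 through a median of 23.9 to 58.0 normalised CPM. Libraries 1, 2 and 3 of the aged group lay above all young ones, and libraries 4 and 5 near the young median. The log2 fold change was 1.44 ± 1.06 (adjusted p = 0.999, edgeR quasi-likelihood), on means of 56.8 ± 37.0 and 20.9 ± 20.2. Aged library 2, the aged library with the least Skil, had the most Smad2.

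Smad3, the other receptor-activated Smad, had near-equal means of 12.1 ± 10.3 in aged and 12.04 ± 8.17 normalised CPM in young libraries. Aged libraries 1 to 5 held 0.965, 12.4, 19.1, 2.83 and 25.01, and young ones ran from 3.55 through 9.15 to 23.9. The aged values covered more than the young range at both ends. The log2 fold change was 0.0028 ± 1.08 (adjusted p = 0.9996, edgeR quasi-likelihood), and its sign turned under several settings. Without aged libraries 1, 3 and 4 it was 0.62.

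Smad4, the partner that both share, was the only tested member with a negative log2 fold change. Aged libraries 1 to 5 held 11.1, 35.5, 9.76, 1.77 and 33.9 normalised CPM. Young libraries ran from 0.571 through a median of 41.5 to 88.2. All 5 aged libraries lay below the young median, but young library 2 was the lowest of the 12. The means were 18.4 ± 15.3 and 41.2 ± 26.0 normalised CPM (log2 fold change −1.16 ± 0.91, adjusted p = 0.999, edgeR quasi-likelihood). Leaving out aged libraries 1, 3 and 4 gave −0.25.

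Smad7, the inhibitory Smad that acts at the receptors, was scarce. Aged libraries 1 to 5 held 0.0402, 2.02, 0, 15.3 and 0 normalised CPM and young libraries ran from 0 through 0.403 to 4.72. In 3 aged and 3 young libraries it had at most 3 counts. Library 4 held 319 of the 380 aged counts. The log2 fold change of 1.5 ± 1.96 (adjusted p = 0.999, edgeR quasi-likelihood) was −1.22 without it.

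**Figure D3:**
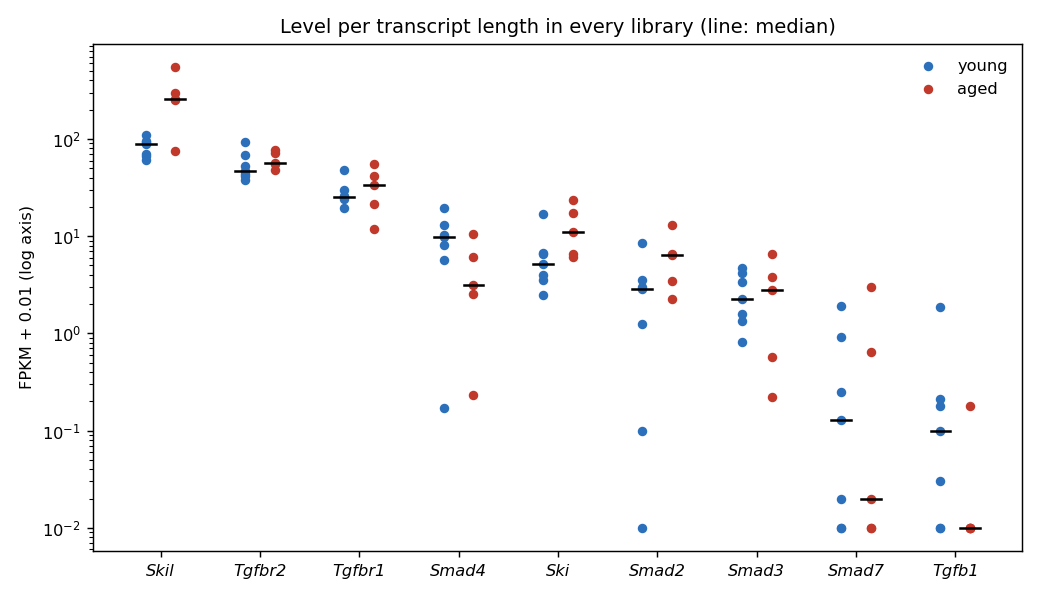
FPKM plus 0.01 (log axis) of the 9 members in each young (blue) and aged (red) library, with medians as lines, ordered by the mean of the young libraries. Skil and both receptors stand above 10 in every library, and Smad7 and Tgfb1 lie at the bottom with medians of 0.12 and 0.09 FPKM in young libraries.

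Per transcript length the order in young libraries was Skil (83.6 ± 17.6 FPKM), Tgfbr2 (55.0 ± 19.8), Tgfbr1 (28.2 ± 9.002), Smad4 (9.59 ± 6.07), Ski (6.46 ± 4.84), Smad2 (2.74 ± 2.90), Smad3 (2.61 ± 1.504), Smad7 (0.451 ± 0.710) and Tgfb1 (0.333 ± 0.674). Every pair of neighbours in this order overlapped in range over the young libraries. Compared within each library, Tgfbr2 lay above Tgfbr1, Tgfbr1 above Smad4 and Ski above Smad2 in every young library. The other adjacent pairs did not keep their order in every young library. In aged libraries the order was the same except that Smad4 (4.46 ± 3.92 FPKM) came below Ski (12.9 ± 7.47) and Smad2 (6.33 ± 4.12). Skil averaged 287 ± 170 FPKM in that group, and again every neighbouring pair overlapped in range. Within every aged library Skil lay above Tgfbr2, Tgfbr2 above Tgfbr1 and Tgfbr1 above Ski. The other adjacent pairs did not keep their order in every aged library.

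Beyond the members, 157 genes of the pathway were listed by role; 149 were in the table and 97 passed the low-count filter. None of the 97 passed edgeR's quasi-likelihood test, beside 0.0105% of all genes tested. DESeq2 called 3 of them (beside 1.27% of all genes), edgeR with legacy=FALSE called 1 (0.398%) and voom called 0 (0.0209%). At an unadjusted p under 0.05 there were 13 of the 97, beside 5.97% of all genes tested. Of the 97, 47 had a positive and 50 a negative log2 fold change (median −0.03), beside 49.5% positive and a median of −0.01 over all genes tested. The groups did not overlap for 1 gene, Rock1, beside 0.597% of genes tested.

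Rock1, a kinase that acts on the cytoskeleton downstream of Rhoa, was at 533, 183, 786, 334 and 285 normalised CPM in aged libraries 1 to 5. The young libraries ran from 94.0 to 180, so all 5 aged libraries lay above them, library 2 by the least. Its log2 fold change was 1.58 ± 0.31 (adjusted p = 0.139, edgeR quasi-likelihood). It passed with DESeq2 (adjusted p = 0.00182), with legacy=FALSE (adjusted p = 0.0110), with no low-count filter (adjusted p = 0.0183) and without aged library 2 (adjusted p = 0.0085, a setting that called 0.755% of all genes). Of the 10 alternatives other than single libraries left out, 7 did not call Rock1. Of the 12 single libraries left out, only aged library 2 gave a call. Without aged libraries 1, 3 and 4 its log2 fold change was 0.71. Of the 10 tested Smad-independent kinases, 5 were positive (median −0.03). Traf6, which links the receptors to kinase signalling, was at 29.5 ± 25.4 against 17.5 ± 24.2, Tab2, its kinase adaptor, at 48.6 ± 26.8 against 53.6 ± 33.2, and Mapk14, the p38 kinase, at 74.7 ± 28.9 against 87.3 ± 42.0 normalised CPM in aged and young libraries.

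Other ligands of the superfamily were scarce: 2 of the 15 in the table passed the filter. Bmp2, a bone morphogenetic protein, was at 18.4, 42.1, 119, 168 and 15.9 normalised CPM in aged libraries 1 to 5 and at 28.6 ± 21.2 over young ones (log2 fold change 1.35 ± 0.76, adjusted p = 0.990, edgeR quasi-likelihood). Aged libraries 3 and 4 lay above all young ones and the other 3 inside their range. The log2 fold change of Bmp2 was 0.75 without aged library 4 and 0.029 without aged libraries 1, 3 and 4. Tgfb2 had more than 3 counts in 3 of the 12 libraries. Tgfb3 had 2 counts over all 12.

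Of the genes for latency and activation, 7 were tested, 5 with a positive log2 fold change (median 0.78). Nrros, which holds latent TGF-beta on the surface of macrophages, was at 271 ± 156 normalised CPM over aged and 284 ± 94.5 over young libraries (log2 fold change −0.07 ± 0.37). Itgav, an integrin subunit that takes part in releasing the ligand, was at 73.6 ± 36.9 against 42.0 ± 15.6 (log2 fold change 0.81 ± 0.47, or 0.50 without aged library 5), and Itgb5, a partner of Itgav, at 62.7 ± 34.4 against 52.7 ± 16.7. Decorin (Dcn), a matrix proteoglycan that binds TGF-beta, was at 49.2 ± 66.6 against 26.0 ± 34.8, and its log2 fold change of 0.92 was −0.31 without aged library 5. Fibroblast markers, a list that holds Dcn, summed to 875 normalised CPM in aged library 5 and to at most 227 in any other library; their part in the value of Dcn was not tested.

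Other receptors and their adaptors were divided 6 to 6 (median 0.05). Bmpr2, the type II receptor for bone morphogenetic proteins, was at 210 ± 70.3 normalised CPM over aged and 114 ± 49.96 over young libraries (log2 fold change 0.89 ± 0.32, adjusted p = 0.512, edgeR quasi-likelihood). Zfyve16, an endosomal adaptor for Smads, was at 59.0 ± 19.1 against 20.1 ± 15.8 (log2 fold change 1.55 ± 0.65, adjusted p = 0.690, edgeR quasi-likelihood). For Zfyve16, 4 of 5 aged libraries lay above all young ones, beside 2.91% of all genes tested with at least 4 such libraries. Bmpr2 was at 0.34 on the log2 scale when aged libraries 1, 3 and 4 were left out. Fkbp1a, a binding protein that keeps the type I receptor inactive, was at 224 ± 116 against 284 ± 114, and Bmpr1a at 18.1 ± 12.4 against 23.8 ± 21.3. Smad1 (17.6 against 12.7) and Smad5 (9.63 against 16.4 normalised CPM), the Smads of the bone morphogenetic protein branch, had log2 fold changes of 0.48 ± 1.52 and −0.77 ± 1.25.

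Nuclear partners and co-repressors had 11 positive log2 fold changes of 18 (median 0.10). Hipk2, a nuclear kinase that binds Ski co-repressor complexes, was at 75.1 ± 41.8 normalised CPM over aged and 38.0 ± 13.5 over young libraries (log2 fold change 0.98 ± 0.46, adjusted p = 0.831, edgeR quasi-likelihood). Ep300, the acetyltransferase that Smads recruit to activate genes, was at 29.4 ± 10.9 against 15.6 ± 8.02. Hdac1, a histone deacetylase of the co-repressor complexes, was at 19.3 ± 11.8 against 38.3 ± 13.5, and Trim33, a ubiquitin ligase that binds Smads, at 19.0 ± 15.7 against 33.7 ± 40.6. No member of this list passed (0.0105% of all genes did), and at an unadjusted p under 0.05 there were 2 of 18, beside 5.97% of all genes. Leaving out aged libraries 1, 3 and 4 gave 0.21 for Hipk2 and −0.43 for Hdac1, and leaving out aged library 3 alone gave 0.59 for Hipk2.

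Among 21 turnover enzymes, 7 had a positive and 14 a negative log2 fold change (median −0.25). Rnf111, the ligase Arkadia that marks Skil, Ski and Smad7 proteins for removal, was at 152, 34.9, 18.8, 189 and 71.3 normalised CPM in aged libraries 1 to 5 and at 48.4 ± 23.6 over the young ones (log2 fold change 0.94 ± 0.55, adjusted p = 0.999, edgeR quasi-likelihood). Aged library 3, with the most Skil, had the least Rnf111 of the 12 libraries. The log2 fold change of Rnf111 was 0.50 without aged library 4 and 0.12 without aged libraries 1, 3 and 4. Smurf2, another ligase of Smads and Skil, was at 33.8 against 31.9 normalised CPM. Cdc27 and Anapc10, subunits of the anaphase-promoting complex that also targets Skil, were at 17.0 ± 29.2 against 37.7 ± 29.4 and at 119 against 105.

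Usp4, a deubiquitinase of the type I receptor, was at 9.29, 12.95, 30.2, 13.6 and 19.8 normalised CPM in aged libraries 1 to 5 and between 26.8 and 68.3 in young ones. Aged libraries 1, 2, 4 and 5 lay below all young libraries and library 3 inside their range. The share of all genes with as many aged libraries below every young one was not counted. Its log2 fold change was −1.36 ± 0.61 (adjusted p = 0.772, edgeR quasi-likelihood). The phosphatase Ppm1a, which acts on Smad2 and Smad3, was at 42.5 ± 26.8 against 19.4 ± 20.9. Usp11, another deubiquitinase, had means of 0.141 against 10.5 normalised CPM; it was called by DESeq2 (adjusted p = 0.00182) but not by edgeR (adjusted p = 0.399), and is named after its values were seen.

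Of the 11 tested genes that TGF-beta is known to induce, 6 were positive (median 0.16). Pmepa1, a membrane protein that damps Smad signalling, was at 72.5, 107, 108, 52.9 and 93.2 normalised CPM in aged libraries 1 to 5 and between 28.4 and 54.7 in young ones. Aged library 4 lay inside the young range and the other 4 above it, beside 2.91% of all genes tested with at least 4 aged libraries above every young one. Its log2 fold change was 1.04 ± 0.38 (adjusted p = 0.512, unadjusted p = 0.0130, edgeR quasi-likelihood). Klf10, a Kruppel-like factor first known as a TGF-beta early gene, was at 65.9 ± 31.5 against 43.4 ± 16.9.

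Junb, an AP-1 transcription factor, lay the other way, at 197, 185, 129, 130 and 302 normalised CPM in aged libraries 1 to 5 against 266 to 531 in young ones. Aged libraries 1 to 4 lay below all young libraries, a pattern whose share over all genes was not counted. Its log2 fold change was −1.14 ± 0.26 (adjusted p = 0.187, edgeR quasi-likelihood, and 0.00386 with DESeq2). Tsc22d1, another early target, was at 53.0 ± 25.8 against 74.1 ± 19.1. Tgfbi and Id2 were at 271 against 237 and at 689 against 614 normalised CPM. Pmepa1, Klf10 and Junb are all known to respond to other signals too.

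Among 16 microglial genes that depend on TGF-beta, 11 were negative and 5 positive (median −0.43), and 0 passed edgeR's quasi-likelihood test (0.0105% of all genes did), with 3 of 16 at an unadjusted p under 0.05, beside 5.97% of all genes. C1qa is given above. Siglech, a sialic acid-binding lectin, was at 570 ± 94.2 normalised CPM over aged and 403 ± 82.1 over young libraries (log2 fold change 0.50 ± 0.20, adjusted p = 0.602). Sparc, a matrix-binding glycoprotein, was at 19.9 ± 15.8 against 60.5 ± 54.3 (log2 fold change −1.61 ± 0.82), and Pros1, a ligand of the Mertk receptor, at 123 ± 57.6 against 109 ± 35.3. Fcrls, a scavenger receptor-like protein, was at 743 against 1137; it passed without aged library 2 (adjusted p = 0.0270) and is named after its values were seen. DESeq2, legacy=FALSE and voom called 0 genes of this list. Leaving out aged libraries 1, 3 and 4 gave −0.79 for Sparc.

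**Figure D4:**
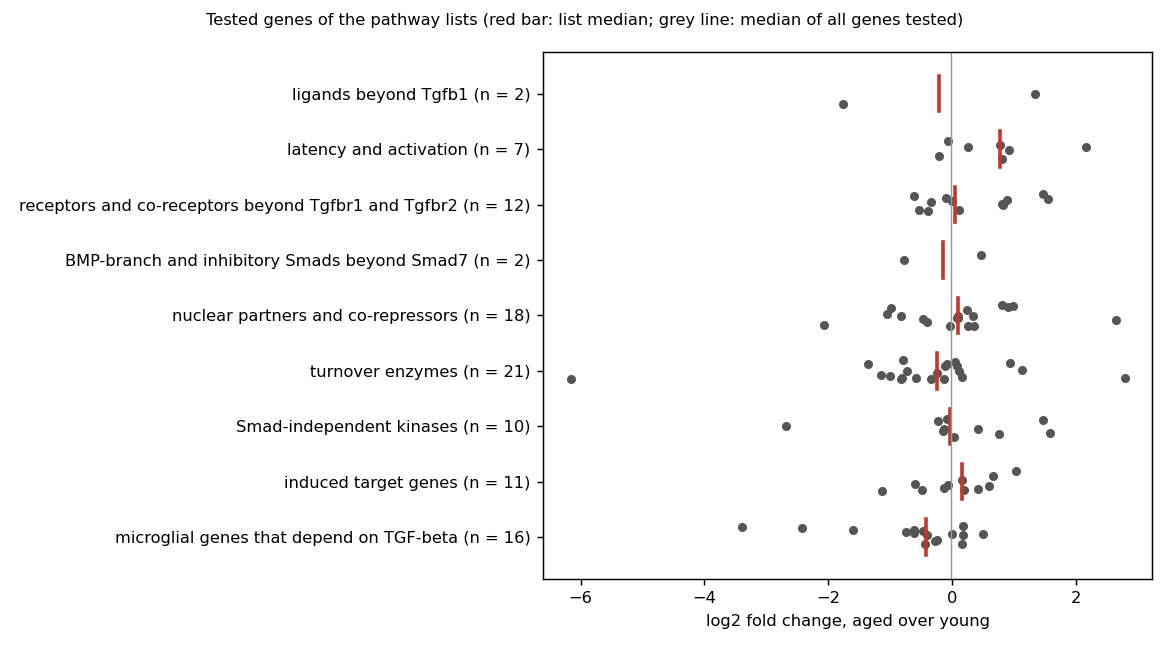
Log2 fold changes, aged over young (horizontal axis), of the tested genes in each pathway list, a point per gene, with the list median in red and the median of all genes tested (−0.01) as a grey line. Points lie on both sides of 0 in each of the 9 lists, and the medians run from −0.43 (microglial genes) to 0.78 (latency and activation).

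**Figure D5:**
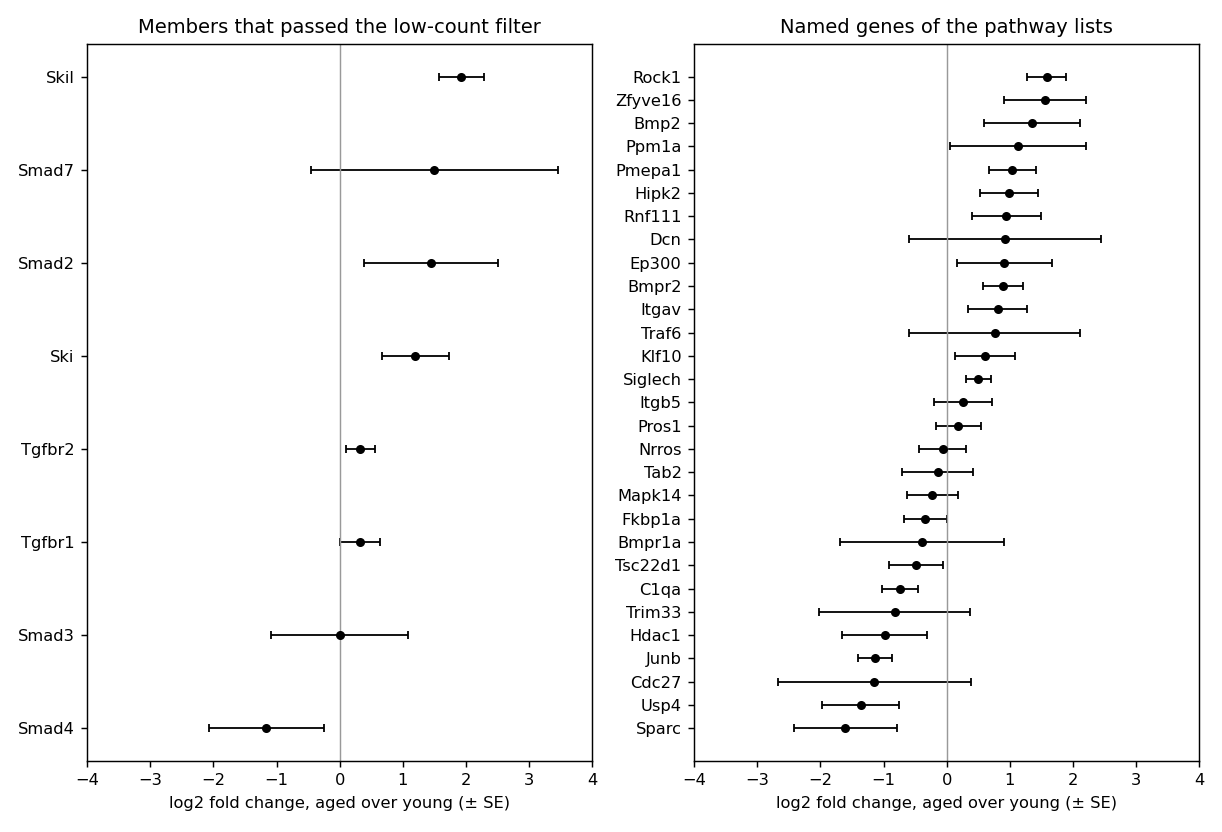
Log2 fold changes, aged over young, with SE as whiskers, for the 8 members that passed the low-count filter (left) and the 29 named genes of the pathway lists (right). Skil, chosen for this difference, is at 1.93 ± 0.35 and Rock1 at 1.58 ± 0.31. The whiskers of Smad7 (1.5 ± 1.96), Smad3 and Dcn are among those that span 0.

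The nearest tested genes around Skil on chromosome 3 did not pass the test. On one side lie Prkci, an atypical protein kinase C (42.3 kb away), and Phc3, a Polycomb protein (126 kb). On the other lie Slc7a14, a lysosomal amino acid transporter (79.9 kb), and Pik3ca, a lipid kinase (1274 kb). Slc7a14 was at 89.3 ± 68.1 normalised CPM over aged and 37.6 ± 11.3 over young libraries (log2 fold change 1.25 ± 0.50, adjusted p = 0.633, edgeR quasi-likelihood), and the value was 0.70 without aged library 4 and −0.12 without aged libraries 1, 3 and 4. Pik3ca was at 39.0 ± 16.2 against 23.5 ± 10.01, Phc3 at 30.5 ± 28.7 against 30.8 ± 15.2 and Prkci at 7.88 ± 10.5 against 13.8 ± 11.5 normalised CPM.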

How the data were processed

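Per the labels' protocols, RNA was made into SMART-seq2 cDNA with oligo-dT priming, Nextera XT libraries and DNA nanoballs, a chemistry that does not mark strand. The authors deposited estimated counts and normalised values (read as FPKM from their scaling) for 17358 genes. The submitters' processing notes name RSEM 1.2.12, HISAT2 2.0.4, DESeq2 1.4.5 and Bowtie2 2.2.5 with GRCm38 and mm10, with no role or order, and the sources used here do not give the annotation. Counts were rounded and tested with edgeR 4.0.16 (quasi-likelihood, legacy=TRUE, TMM, filterByExpr, robust), with Benjamini-Hochberg adjustment over all 9550 genes tested and a threshold of 0.05. Alternatives were DESeq2 1.42.0, limma 3.58.1 (voom, or log2(FPKM + 1)), other scalings and filters, legacy=FALSE, a transcript length offset, the replicate number as a block, and libraries left out. Tested on simulated data, the fit called none of the unchanged genes, and fewer changed genes than it missed at every fold size simulated. Levels are TMM-normalised CPM, mean ± SD. Standard errors come from the F statistic. The chi-square per degree of freedom between any pair of libraries was at least 275, so none was a repeat deposit. RefSeq identifiers matched 17244 genes.

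The members and gene lists were chosen with earlier results of these data known. Pathway genes were named by rule: in each list the 2 highest and 2 lowest log2 fold changes at a mean of at least 20 CPM, and any gene past the threshold or without overlap; the genes ranked most like Skil (5) and least (3); and the 2 nearest tested genes on each side of it. Smad1, Smad5, Smurf2, Anapc10, Tgfbi and Id2 fall outside this rule and were named for their roles after their values were seen. Usp11 and Fcrls fall outside it too and were named because another setting called them.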

Additional observations from a re-analysis of the deposited data

Results flagged for a closer look

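In 9 of 98 groups examined (49 genes in 2 groups) a library lay far from the rest of its group by Dixon's criterion. Chance meets it in about 1 of 20 groups of normally distributed values. Some levels here are tied at 0, so that rate need not hold. Among the members, Ski was at 71.3 normalised CPM in young library 4 (the others at 14.6 to 34.9), Tgfb1 at 0.431 in aged library 4 (the others at 0) and at 3.77 in young library 3 (the others at most 0.407), and Smad7 at 15.3 in aged library 4 (the others at most 2.02). Aged library 4 also stood out for Cdc27 at 67.4 (the others at most 17.7) and Mapk14 at 124.4 (the others at most 73.5). Young library 1 stood out for Fkbp1a at 515.8, young library 6 for Traf6 at 69.0 and aged library 5 for Phc3 at 80.5 normalised CPM.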

How the results depend on the processing

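The log2 fold change of Skil was positive under every alternative, from 1.46 to 2.18 when any single library was dropped, and 0.88 without aged libraries 1, 3 and 4. None of the other members was called under any alternative. The pathway genes called numbered 3 with DESeq2, 1 with legacy=FALSE, 1 without a low-count filter, and between 0 and 2 over single libraries left out. Over all genes, 1 call became 121 with DESeq2, 38 with legacy=FALSE, 13 without a filter, 6 with limma on log2(FPKM + 1), 4 with upper-quartile factors, 4 at a minimum of 10 CPM in 5 libraries, 2 with voom, 0 without aged libraries 1, 3 and 4, and between 0 and 75 over single libraries left out. The replicate numbers did not pair the libraries (correlations of same-numbered deviations from −0.11 to 0.32); with the replicate number as a block (libraries 1 to 5), 0 genes were called and Skil was at 1.75.

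Signs turned for Smad3 (DESeq2 −0.041, upper-quartile −0.00599, voom −0.38, log2(FPKM + 1) −0.14, no filter −0.00746, replicate block −0.78, and −0.46 to 0.28 over single libraries) and Smad7 (voom −0.0671, block −0.52, without aged libraries 1, 3 and 4 −0.25, and −1.22 to 2.42 over single libraries). With the block they also turned for Bmpr1a (0.057), Phc3 (0.0880) and Prkci (0.28), with voom for Dcn (−0.19), with log2(FPKM + 1) for Itgb5 (−0.0240) and Pros1 (−0.032), and with legacy=FALSE for Phc3 (0.075). Without aged libraries 1, 3 and 4 they turned for Nrros (0.54), Phc3 (0.78), Slc7a14 (−0.12), Itgb5 (−0.089) and Ier2 (0.037). Over single libraries left out, values ran from −0.31 to 1.58 for Dcn, −0.40 to 0.15 for Nrros, −0.79 to 0.19 for Phc3, −0.050 to 0.36 for Pros1 and −0.52 to 0.040 for Tab2. The cause was not tested. Voom, log2(FPKM + 1) and the block moved the median of all genes to −0.13, −0.17 and −0.15. Among the members, Tgfb1 and Smad7 had the fewest counts, at or under 3 in 7 and 6 of 12 libraries. Smad2, with more counts, still ran from 0 in young library 2 to 1857 in young library 4. The part of depth in this spread was not tested. Dropping any single library moved 27 of 48 log2 fold changes by over 1.5 times or turned their sign.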
